A study of Homo sapiens with 20 samples.

Results

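The genes described here encode the TGF-β ligands (TGFB1, TGFB2 and TGFB3), the activin subunit βA (INHBA), the latency protein LTBP1, the type I and type II TGF-β receptors (TGFBR1 and TGFBR2), the signal transducer SMAD3, the inhibitory SMAD7 and the matrix protein TGFBI. They were chosen by name as a pathway, 10 of the 57500 genes counted in the files, and all 10 were matched by their Ensembl identifiers. RNA was sequenced from NTERT cells, an immortalized human keratinocyte line that expresses telomerase, in 4 groups of 5 replicates. Cells of 2 genotypes, WT and GCN2KO, were left unwounded or underwent HDW, where high-density wounding (HDW) draws a row of pipet tips across a confluent sheet so that many cells border a wound, and RNA was taken 6 h afterwards. GCN2KO cells were a CRISPR/Cas9-edited pool and not a clone, used at early passage, and WT cells carried a control guide. The study made GCN2KO pools with guides to different exons and does not state which was sequenced. If all GCN2KO replicates came from the same pool, genotype and pool cannot be told apart. According to the study's methods, cells of all groups were placed in calcium and serum to differentiate before the wounding step. The same methods cite an earlier report that keratinocytes without GCN2 can differentiate late. The part of differentiation stage in the genotype differences below was not tested.

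TGF-β ligands are secreted in a latent form that LTBP proteins tether to the matrix and that integrins and thrombospondin release. Active TGF-β assembles TGFBR2 with TGFBR1, and activin acts through its own type I and type II receptors. Both routes phosphorylate SMAD2 and SMAD3, which enter the nucleus with SMAD4, and SMAD7 feeds back on the receptors. In epidermis TGF-β restrains keratinocyte proliferation, and TGF-β and activin are known in skin repair.

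The promoters of 2 genes with less mRNA in GCN2KO cells than in WT (TGFB1 and TGFBI) and 2 with more (TGFB2 and LTBP1) are shown as the 150 bases before the start site, 5′ to 3′ on the gene's strand, from RefSeq (GRCh38.p14). Capitals mark matches, on either strand, to the SMAD box CAGAC, the AP-1 site TGANTCA, the cyclic AMP response element TGACGTCA or the ATF4 element TGATGNAA. The TGFB1 window is chr19:41353923-41354072 on the minus strand, and those of TGFB2 (chr1:218345186-218345335), LTBP1 (chr2:32946803-32946952) and TGFBI (chr5:136028838-136028987) are on the plus strand.
TGFB1: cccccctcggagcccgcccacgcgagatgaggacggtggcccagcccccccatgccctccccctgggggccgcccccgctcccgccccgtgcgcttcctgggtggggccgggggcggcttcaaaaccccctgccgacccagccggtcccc
TGFBI: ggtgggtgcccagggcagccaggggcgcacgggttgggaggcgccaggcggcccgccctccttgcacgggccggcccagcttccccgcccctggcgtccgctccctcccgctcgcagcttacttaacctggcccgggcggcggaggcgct
TGFB2: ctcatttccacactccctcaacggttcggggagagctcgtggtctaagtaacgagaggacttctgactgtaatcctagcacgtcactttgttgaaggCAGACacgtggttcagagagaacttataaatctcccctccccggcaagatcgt
LTBP1: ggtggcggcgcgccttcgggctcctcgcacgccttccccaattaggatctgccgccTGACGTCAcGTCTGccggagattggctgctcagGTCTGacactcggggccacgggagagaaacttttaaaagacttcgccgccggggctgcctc

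The TGFB1 and TGFBI windows held no match to any of the motifs. The TGFB2 window held a SMAD box 53 bases before the start site, and the LTBP1 window held a cyclic AMP response element 94 bases before it with SMAD boxes at 85 and 61 bases. Over windows of 250 bases before to 50 after a start site, 45.3% of 35116 windows of all genes held a SMAD box, 7.71% an AP-1 site, 1.85% a cyclic AMP response element and 3.62% an ATF4 element. Of the 27 windows of the 10 genes, 15 held a SMAD box, 2 an AP-1 site, 1 a cyclic AMP response element and 0 an ATF4 element. The SMAD boxes lay in windows of TGFB2, TGFB3, TGFBR1, INHBA, LTBP1, SMAD7 and SMAD3, and the AP-1 sites in those of TGFBR2 and SMAD3. INHBA, SMAD7, SMAD3 and TGFBR2 had less mRNA in GCN2KO cells, so matches were not confined to genes with more. A link between matches and direction was not tested. These matches are letters in a sequence, and binding was not measured.

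The libraries held 14083504 to 34611570 counts, and the 5 WT unwounded libraries were the shallowest as a group, at 14083504 to 30505904. Values are normalized read counts, which are raw counts scaled by TMM (trimmed mean of M values) library sizes to the mean of the 20 libraries. EIF2AK4, the gene of GCN2, had 3980 to 4555 normalized read counts in the 10 WT libraries and 806 to 962 in the 10 GCN2KO libraries. Keratinocyte marker genes summed to 124000 to 183000 normalized read counts per kb of exon, and fibroblast, melanocyte, endothelial and leukocyte markers to at most 115, 29.5, 2.09 and 53.5, with TYR at 0 in every library. The summed keratinocyte markers ranged in WT libraries from 124000 to 129000 unwounded and 159000 to 169000 after HDW and in GCN2KO libraries from 130000 to 162000 and 169000 to 183000, and the part of this shift in the differences below was not tested. The sum hides markers that went opposite ways: from unwounded WT to unwounded GCN2KO libraries mean normalized read counts were higher for KRT5 (233782 and 329191), LAMB3 (70847 and 150733) and IVL (3126 and 11072) and lower for KRT14 (63316 and 35134), COL17A1 (82941 and 32321), ITGB4 (50244.5 and 25992) and TP63 (12016 and 8346). Leukocyte markers summed to 17.4 to 26.4 and 28.8 to 35.4 in unwounded and HDW libraries of WT and to 34.2 to 53.5 and 40.6 to 51.2 in those of GCN2KO cells, mostly from CD68, which shares 85.6% of its exonic bases with other genes, while PTPRC was at 0 in 3 groups and its part was likewise not tested. GCN2KO HDW replicate 5 stood apart from the other 4 libraries of its group, with a chi-square per degree of freedom of 16.0 to 40.8 against them and 2.48 to 6.98 among them. WT HDW replicate 2 was at 16.2 to 21.8 against replicates 1, 4 and 5 and at 5.83 against replicate 3, and WT HDW pairs without it were at 2.44 to 8.30. It was the lowest WT HDW library for INHBA, TGFBR2 and SMAD3 and the highest for TGFB2. GCN2KO unwounded libraries spread most, at 6.76 for replicates 2 and 4, 8.44 for replicates 3 and 5 and 19.2 to 49.4 for every other pair. By the study's methods the replicates were replicate platings, and neither they nor the labels say whether they came from separate passages, so p-values measure the spread between these samples, which may be partly technical. In bulk RNA, fewer cells of a type and less RNA per cell cannot be told apart.

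A gene was called when its adjusted p was at most 0.05 (edgeR's quasi-likelihood test, Benjamini-Hochberg over all genes tested), and a called gene was a DE gene when its log2 fold change was also at least 1 in size. All 10 genes passed the filter on low counts in every comparison. In unwounded cells 2 of the 10 were higher and 6 lower in GCN2KO than in WT cells, where 33.4% of 15348 genes tested were called higher and 33.1% lower. After HDW 3 were higher and 6 lower, against 35.9% and 35.8% of all genes. TGFB1 and TGFB2 were the DE genes in each state, 2 of 10, where 16.4% of genes were DE genes unwounded and 14.9% after HDW. The median log2 fold change of the 10 genes was -0.48 unwounded and -0.30 after HDW, and that of all genes was 0.0042 and 0.0020. The groups did not overlap for 7 of the 10 genes in each state. This count was not made over all genes, so there is no background to read it against.

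HDW gave fewer calls. In WT cells 4 of the 10 genes rose and 3 fell after HDW, against 26.1% and 25.2% of 15348 genes, and in GCN2KO cells 3 rose and 0 fell, against 11.9% and 10.8% of 15791 genes. In GCN2KO cells 4 were higher and 0 lower at an unadjusted p under 0.05, and DESeq2 also called 3 higher and 0 lower. INHBA was the 1 DE gene in each genotype, where 4.17% of genes were DE genes in WT and 0.671% in GCN2KO cells. The interaction of genotype and HDW was called for TGFBR1 and SMAD3, each positive, where 11.2% of 16536 genes had a positive and 12.5% a negative interaction, and 0 of the 10 were past the fold threshold, as 3.31% of genes were. DESeq2 also called 2 positive and 0 negative interactions among the 10 genes, 0 of them past the fold threshold, and at an unadjusted p under 0.05 edgeR had 3 positive and 0 negative. With library size alone in place of TMM, 15% of genes had a positive and 9.13% a negative interaction. These comparisons share samples and are not independent of each other. Leaving out GCN2KO HDW replicate 5 or WT HDW replicate 2 left the counts of higher, lower and DE genes among the 10 as given here.

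**Figure D1:**
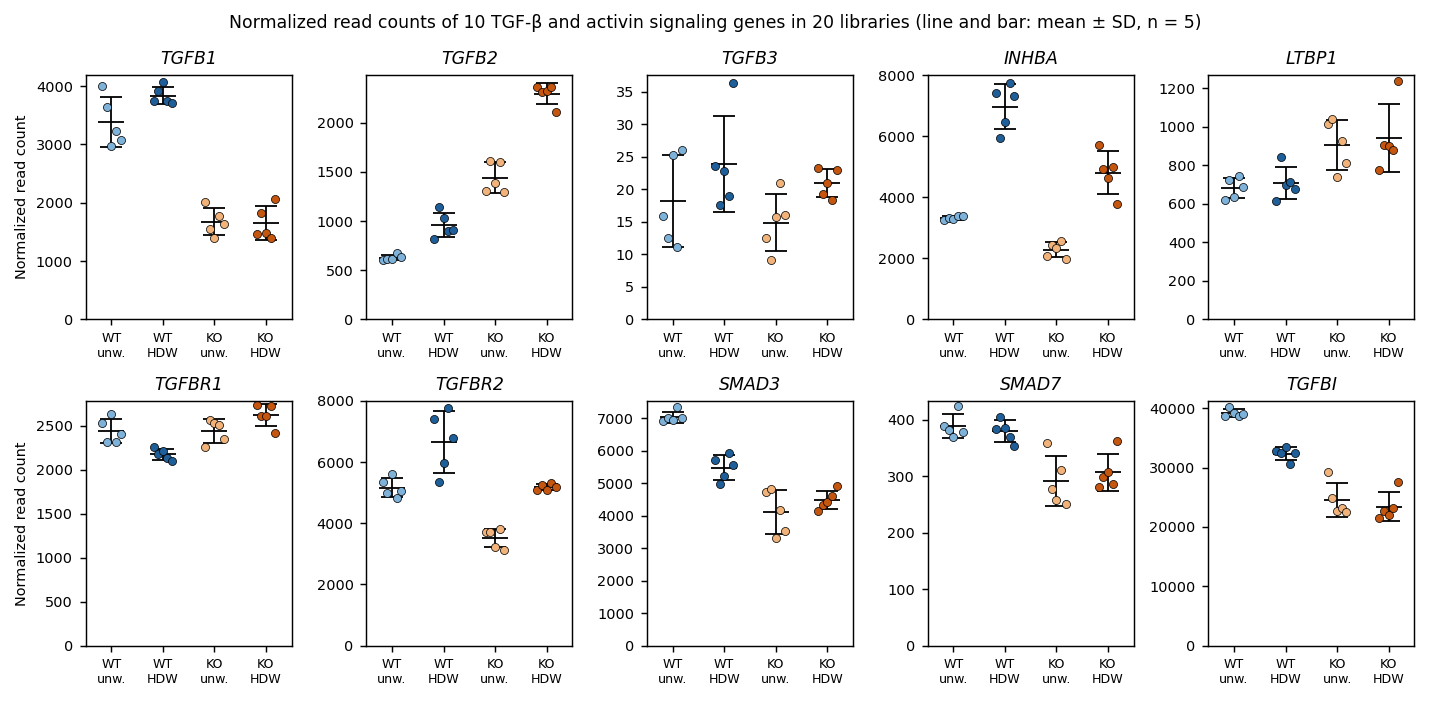
Normalized read counts (linear axis from 0, a separate scale for each gene) of the 10 genes in WT and GCN2KO (KO) libraries, unwounded (unw.) or after HDW, with 1 point a library, ordered by replicate number, and a line and bar for the mean ± SD (n = 5). TGFB1 is lower in all 10 GCN2KO than in all 10 WT libraries, TGFB2 is highest in GCN2KO HDW libraries at 2110 to 2362, and INHBA is higher after HDW in each genotype.

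TGFB1 encodes TGF-β1 and lies on chromosome 19 (41301587 to 41353922, minus strand, GRCh38). Its normalized read counts were 4010.3, 3640.2, 2976, 3224 and 3073 in WT unwounded replicates 1 to 5 and 3746, 3922, 4064, 3749.9 and 3709 in WT HDW. GCN2KO unwounded libraries had 2015, 1549.7, 1404, 1767 and 1631, and GCN2KO HDW libraries had 1463, 1833, 1488, 1393 and 2065. Every GCN2KO library lay below every WT library, and the highest WT unwounded values were those of the shallower replicates 1 and 2.

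TGFB1 was 2.02-fold lower in unwounded GCN2KO cells (log2 fold change -1.01, SE 0.10, adjusted p = 2.72e-07) and 2.32-fold lower after HDW (-1.22, SE 0.09, adjusted p = 3.94e-08). The unwounded value sat at the fold threshold: it ranged from -1.09 to -0.95 with 1 library left out, and TGFB1 was no DE gene without WT unwounded replicate 1 or 2 or GCN2KO unwounded replicate 2, 3 or 5. In WT cells TGFB1 rose by 0.18 on the log2 scale after HDW (SE 0.07, adjusted p = 0.0357), with overlapping groups. That call was lost without WT unwounded replicate 3, 4 or 5 or WT HDW replicate 3 (adjusted p 0.0808 to 0.105), with library size alone (0.15, adjusted p = 0.0984) and with all 20 samples in 1 fit (adjusted p = 0.157). In GCN2KO cells the difference after HDW was -0.01 (SE 0.12, adjusted p = 0.962), and the interaction was not called (-0.20, SE 0.14, adjusted p = 0.325).

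TGFB2, on chromosome 1 (218345336 to 218444619, plus strand), encodes TGF-β2. WT unwounded replicates 1 to 5 had 600.2, 612, 616, 674 and 639 normalized read counts and WT HDW replicates had 819, 1142, 1030.4, 900.3 and 906. GCN2KO unwounded replicates had 1307, 1611, 1386, 1603 and 1294, and GCN2KO HDW replicates had 2362, 2313, 2327, 2361 and 2109.8. The 4 groups did not overlap and stood in rising order as listed here.

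The difference between genotypes in TGFB2 was opposite in sign to that in TGFB1, 2.29-fold higher in unwounded GCN2KO cells (log2 fold change 1.20, SE 0.08, adjusted p = 1.69e-09) and 2.39-fold higher after HDW (1.26, SE 0.08, adjusted p = 5.66e-09). HDW raised it in WT (0.60, SE 0.08, adjusted p = 1.04e-05) and in GCN2KO cells (0.68, SE 0.08, adjusted p = 0.000176). The responses differed by 0.07 (SE 0.11, adjusted p = 0.715), which was not called. Of the exonic bases of TGFB2, 34.2% are shared with the antisense gene TGFB2-AS1 or with TGFB2-OT1, and the strand setting of the counting is not given in the sources used here. TGFB2-OT1, on the same strand as TGFB2 over 22.7% of its exonic bases, was at 0 in every library. The handling of reads that fall on both genes is also not given, so this 0 does not show that all TGFB2 reads were counted. TGFB2-AS1 had 21.7 to 145 normalized read counts, with group means of 28.6, 57.3, 78.1 and 125 in the same order of groups as TGFB2. TGFB1 shares 6.59% of its exonic bases with HNRNPUL1 on the opposite strand, and the other genes of the 10 share at most 3.39%.

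TGFB3, the gene of the third ligand, was scarcely counted, with 6 to 42 raw counts a library. Means were 18.2 ± 7.07 (SD, n = 5) and 23.9 ± 7.40 normalized read counts in unwounded and HDW libraries of WT and 14.9 ± 4.41 and 21.0 ± 2.20 in those of GCN2KO cells. No comparison of TGFB3 was called at SEs of 0.21 to 0.36 on the log2 scale, larger than those of the other 9 genes in each comparison. Without GCN2KO unwounded replicate 4 its difference after HDW in GCN2KO cells was called (0.62, adjusted p = 0.0484).

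The opposite differences changed the make-up of the ligand mRNA. Per kb of exon, TGFB1 made up 90.5% ± 1.32 (SD, n = 5) of the summed TGFB1, TGFB2 and TGFB3 level in WT libraries before and 87.8% ± 1.06 after HDW, compared with 67.9% ± 4.02 and 56.5% ± 5.10 in GCN2KO libraries. TGFB2 made up 9.18% ± 1.23, 11.8% ± 1.11, 31.8% ± 4.0 and 43.0% ± 5.08, and TGFB3 at most 0.538% in any library. These shares divide TGFB2 by all its exonic bases, and they understate it if reads on its shared bases were left uncounted. The TGFB1 share was 22.7 points smaller in GCN2KO cells unwounded and 31.3 points smaller after HDW (two-sided exact permutation test, p = 0.00794 each, the smallest this design allows, adjusted p = 0.0106 over 4 comparisons). In each state every GCN2KO library was lower in TGFB1 and higher in TGFB2 than every WT library. The p of these genotype comparisons follows from that separation and is no further evidence. HDW changed the share by -2.66 points in WT (exact permutation p = 0.00794, adjusted p = 0.0106) and by -11.3 points in GCN2KO cells (exact permutation p = 0.0159, adjusted p = 0.0159). A difference between these 2 changes was not tested. Changes in points depend on the share before HDW, which was 90.5% in WT and 67.9% in GCN2KO libraries. On the log2 scale neither TGFB1 nor TGFB2 had a called interaction by edgeR's test (-0.20, adjusted p = 0.325, and 0.07, adjusted p = 0.715).

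**Figure D2:**
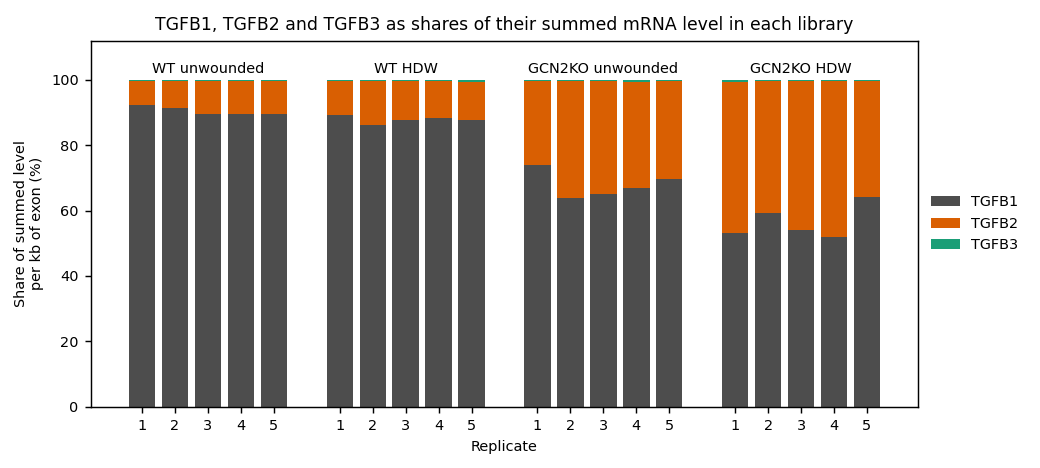
Stacked bars of TGFB1, TGFB2 and TGFB3 as a percentage of their summed level per kb of exon, 1 bar a library, with replicates 1 to 5 of each group on the horizontal axis. The TGFB1 part is 86.2% to 92.3% in WT libraries and 52.0% to 73.9% in GCN2KO libraries.

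INHBA, on chromosome 7 (41667168 to 41705834, minus strand), encodes the βA subunit that forms activin A and is also part of inhibin A. Its normalized read counts were 3245, 3326, 3291, 3402 and 3399.6 in WT unwounded replicates 1 to 5 and 7422, 5948, 6463, 7739 and 7318 in WT HDW. In GCN2KO cells they were 2094, 2434, 2342, 2575 and 1987 unwounded and 5713, 4935, 4649, 4999 and 3779 after HDW. All HDW libraries lay above all unwounded libraries of either genotype, and all GCN2KO libraries lay below the WT libraries of the same state.

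In WT cells INHBA rose 2.09-fold after HDW (log2 fold change 1.06, SE 0.06, adjusted p = 1.87e-09) and 2.12-fold in GCN2KO cells (1.08, SE 0.10, adjusted p = 4.22e-05). The difference between these responses was 0.01 (SE 0.12, adjusted p = 0.971). Across genotypes it was lower in GCN2KO cells by 0.54 on the log2 scale unwounded (SE 0.07, adjusted p = 6.01e-06) and by 0.53 after HDW (SE 0.10, adjusted p = 0.000179). INHBA was thus called in all 4 pairwise comparisons, as were TGFB2 and TGFBR2.

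LTBP1, on chromosome 2 (32946953 to 33399509, plus strand), encodes a protein that anchors latent TGF-β. Its range in WT libraries was 622 to 744 normalized read counts unwounded and 615 to 842 after HDW, and in GCN2KO libraries 739 to 1039 and 774 to 1241. GCN2KO cells were higher by 0.41 on the log2 scale unwounded (SE 0.10, adjusted p = 0.00128) and after HDW (SE 0.11, adjusted p = 0.00461), with groups that overlapped in each state. The highest value was that of GCN2KO HDW replicate 5, without which the difference after HDW was 0.29 (adjusted p = 0.00389). HDW itself was not called for LTBP1 in either genotype.

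TGFBR1 on chromosome 9 (99104038 to 99154192, plus strand) and TGFBR2 on chromosome 3 (30606601 to 30694142, plus strand) encode the receptor kinases. TGFBR1 had 2532, 2311, 2633, 2312 and 2411 normalized read counts in WT unwounded and 2255, 2175, 2209, 2136 and 2099 in WT HDW replicates 1 to 5. GCN2KO replicates had 2253, 2566, 2526, 2508 and 2351 unwounded and 2736, 2612, 2615, 2728 and 2417 after HDW. Unwounded libraries of the genotypes overlapped throughout, and after HDW every GCN2KO library lay above every WT library.

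For TGFBR1 the genotypes differed by 0.0048 on the log2 scale unwounded (SE 0.06, adjusted p = 0.953), and GCN2KO cells were higher by 0.27 after HDW (SE 0.04, adjusted p = 4.35e-05). It fell by 0.17 after HDW in WT cells (SE 0.04, adjusted p = 0.00279), while the difference in GCN2KO cells was 0.11 (SE 0.06, adjusted p = 0.193). The interaction was 0.27 (SE 0.07, adjusted p = 0.00905), and with no filter on low counts it was 0.26 (adjusted p = 0.0527), no longer called.

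TGFBR2 had 5349.8, 4987, 5594, 4836 and 5061 normalized read counts in unwounded WT replicates and 7403, 5354, 5965, 7769 and 6783 after HDW. GCN2KO replicates had 3700.5, 3726, 3236, 3800.0 and 3139.9 unwounded and 5097, 5258, 5101, 5325 and 5193 after HDW. GCN2KO libraries lay below WT libraries in each state, and GCN2KO HDW libraries had the smallest spread of any group. Expression was lower in GCN2KO cells by 0.55 on the log2 scale unwounded (SE 0.07, adjusted p = 5.19e-06) and by 0.36 after HDW (SE 0.08, adjusted p = 0.00129). TGFBR2 rose after HDW by 0.36 in WT (SE 0.08, adjusted p = 0.00174) and 0.57 in GCN2KO cells (SE 0.07, adjusted p = 0.000249), and the interaction was not called (0.20, SE 0.11, adjusted p = 0.215).

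SMAD3, on chromosome 15 (67063763 to 67195173, plus strand), encodes a receptor-activated transducer of TGF-β and activin signals. Normalized read counts were 6908, 6995, 6926, 7329 and 6990.1 in WT unwounded and 5716, 4976, 5207, 5935 and 5560.3 in WT HDW replicates 1 to 5. GCN2KO replicates had 4720.3, 4828, 3317, 4161 and 3514 unwounded and 4143, 4330.0, 4433, 4588 and 4908 after HDW. WT libraries fell after HDW with no overlap, whereas GCN2KO unwounded and HDW libraries overlapped, with unwounded replicates 3 and 5 lowest.

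SMAD3 was lower in GCN2KO cells by 0.77 on the log2 scale unwounded (SE 0.10, adjusted p = 2.65e-06) and by 0.29 after HDW (SE 0.06, adjusted p = 0.000332). HDW lowered it in WT cells (-0.36, SE 0.04, adjusted p = 5.8e-06), and the difference in GCN2KO cells was 0.14 (SE 0.10, adjusted p = 0.349). The responses differed by 0.49 (SE 0.12, adjusted p = 0.00334), and with each library left out in turn this interaction ranged from 0.42 to 0.55 (adjusted p 0.00059 to 0.00791). GCN2KO unwounded replicates 3 and 5, the lowest for SMAD3, were also close over all genes (chi-square per degree of freedom 8.44). They were never left out together, so this range does not cover their joint weight.

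SMAD7, on chromosome 18 (48919853 to 48950965, minus strand), encodes the inhibitory SMAD and is itself induced by TGF-β. Its mean in WT libraries was 389 ± 21.3 (SD, n = 5) normalized read counts unwounded and 379 ± 19.3 after HDW, and in GCN2KO libraries 292 ± 43.9 and 307 ± 33.0. It was lower in GCN2KO cells by 0.41 unwounded (log2, SE 0.10, adjusted p = 0.00157), with no overlap, and by 0.30 after HDW (SE 0.07, adjusted p = 0.00209), where GCN2KO HDW replicate 5 at 363 lay above the lowest WT library. HDW was not called for SMAD7 in either genotype.

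TGFBI, on chromosome 5 (136028988 to 136063818, plus strand), encodes a matrix protein named for its induction by TGF-β. It had 38669, 40293.5, 39222, 38658 and 39030.4 normalized read counts in WT unwounded and 32747, 32455, 33523, 30594 and 32524 in WT HDW replicates 1 to 5. In GCN2KO cells it had 29295, 24843, 22688, 23163 and 22560.0 unwounded and 21449.7, 22753, 22092, 23158 and 27620.2 after HDW. GCN2KO libraries lay below WT libraries throughout, and replicate 1 unwounded and replicate 5 after HDW were the highest of their groups.

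TGFBI was lower in GCN2KO cells by 0.67 on the log2 scale unwounded (SE 0.08, adjusted p = 1.52e-06) and by 0.47 after HDW (SE 0.06, adjusted p = 1.04e-05). In WT cells it fell by 0.28 after HDW (SE 0.03, adjusted p = 4.45e-06), and in GCN2KO cells the difference was -0.06 (SE 0.09, adjusted p = 0.692). The interaction was not called (0.21, SE 0.10, adjusted p = 0.132), but without GCN2KO unwounded replicate 1 it was (0.28, adjusted p = 0.0205).

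**Figure D3:**
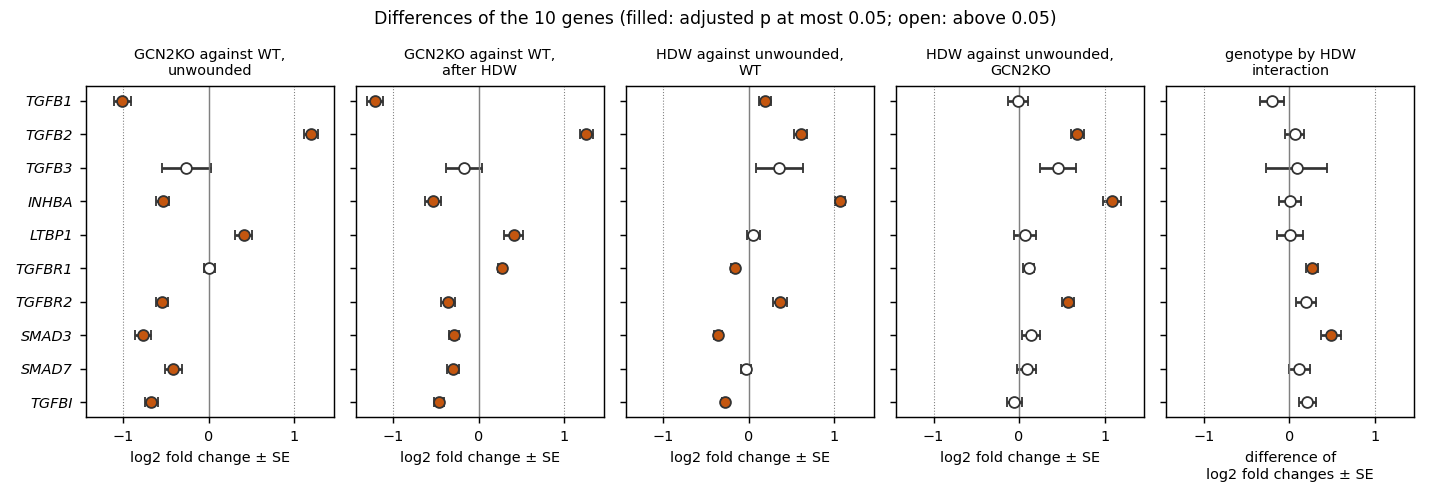
Log2 fold changes of the 10 genes in the 4 pairwise comparisons and, in the last panel, the interaction (the response to HDW in GCN2KO minus that in WT cells), as points with bars of 1 SE; filled points have an adjusted p of at most 0.05 and dotted lines mark the fold threshold. TGFB1 and TGFB2 lie at or past opposite thresholds between genotypes, INHBA lies past the upper threshold after HDW in each genotype, and the filled interactions are TGFBR1 and SMAD3.

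Levels between genes were compared per kb of exon, over all exonic bases of a gene, shared ones included. The level of TGFB2 is therefore uncertain to the extent of its shared bases. TGFBI was the most abundant of the 10 in every group, at 5076 normalized read counts per kb in WT unwounded and 3034 in GCN2KO HDW libraries, and TGFB3 the least, at 2.85 to 4.57. In WT unwounded libraries TGFBI was followed by TGFB1 (1037), TGFBR2 (754), SMAD3 (702), INHBA (402), TGFBR1 (305), TGFB2 (104), SMAD7 (98.5) and LTBP1 (92.9) per kb. The ranges of TGFBR2 and SMAD3 overlapped, as did those of TGFB2 and SMAD7 and of SMAD7 and LTBP1. In GCN2KO HDW libraries the order after TGFBI was TGFBR2 (758), INHBA (581), TGFB1 (505), SMAD3 (448), TGFB2 (379), TGFBR1 (328), LTBP1 (128) and SMAD7 (77.8), with overlap between INHBA and TGFB1 and between TGFB1 and SMAD3. TGFB1 was thus above TGFBR2 without overlap in both WT groups and below it without overlap in the GCN2KO HDW group. The coefficient of variation was larger in GCN2KO unwounded than in WT unwounded libraries for 8 of the 10 genes, a count not made over all genes. Over all genes the chi-square per degree of freedom was 6.76 to 49.4 between GCN2KO unwounded pairs and 2.41 to 11.8 between WT unwounded pairs.

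The 3 genes whose group means spanned the widest range on the log2 CPM scale were TGFB2 (1.87), INHBA (1.61) and TGFB1 (1.23). By root mean square difference of centred log2 CPM over the 20 libraries, among 16536 genes, the genes most like TGFB2 were PVR (0.17), PRDM1 (0.17) and B4GALT4 (0.18). Those most like INHBA were SOX9 (0.19), INPP4B (0.19) and FST (0.20), the last encoding follistatin, which binds and neutralizes activin. Those most like TGFB1 were UNC93B1 (0.10), BBLN (0.12) and CBLC (0.12). The 20 libraries behind this measure fall in 4 groups and differ in depth, and the likeness is a description.

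Other genes of the pathway were read from 5 lists of 58 genes in all. In unwounded cells 52 of them were tested, of which 18 were higher and 31 lower in GCN2KO than in WT cells (median -0.42 on the log2 scale), where 33.4% and 33.1% of all genes were. After HDW 15 were higher and 34 lower of 52 (median -0.41), against 35.9% and 35.8% of all genes. HDW raised 24 and lowered 11 of 50 tested in WT cells (median 0.14; 26.1% and 25.2% of all genes), and raised 16 and lowered 1 of 50 in GCN2KO cells (median 0.16; 11.9% and 10.8% of all genes). The interaction was called positive for 8 and negative for 8 of 53, against 11.2% and 12.5% of all genes. The medians of all genes lay within 0.01 of 0 in each comparison.

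Of the genes of latency and activation, 1 was higher and 8 were lower of 9 tested between genotypes in each state, where 33.1% of all genes were lower unwounded and 35.8% after HDW, with medians of -1.45 unwounded and -1.35 after HDW on the log2 scale. ITGB6, the β subunit of the TGF-β-activating integrin αvβ6, was counted at 8930.1 ± 402 (SD, n = 5) in unwounded WT and 2364 ± 585 in unwounded GCN2KO libraries, in normalized reads (log2 fold change -1.91, SE 0.13, adjusted p = 2.79e-09). LTBP4, a latency protein like LTBP1, was lower by 1.76 after HDW (SE 0.08, adjusted p = 6.85e-10), from 2864 ± 72.7 in WT to 842 ± 130 (SD, n = 5) in GCN2KO libraries. LRRC32, which docks latent TGF-β on cell surfaces, had 28.8 normalized read counts in WT and 2.09 in GCN2KO unwounded libraries (-3.79, SE 0.32, adjusted p = 3.3e-08) and 14.2 and 1.70 after HDW (-2.82, SE 0.40, adjusted p = 1.83e-05), so its fold rests on few reads.

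THBS1, the gene of the activator thrombospondin-1, was the 1 gene of that list that was higher in GCN2KO cells, by 0.79 unwounded (log2, SE 0.09, adjusted p = 7.81e-07) and 0.56 after HDW (SE 0.07, adjusted p = 1.24e-05). It rose after HDW by 1.20 in WT (SE 0.05, adjusted p = 4.73e-11) and 0.97 in GCN2KO cells (SE 0.11, adjusted p = 0.000147). ITGAV, the αv integrin subunit, rose by 0.24 in WT cells (SE 0.04, adjusted p = 0.000272), where ITGB6 fell by 0.30 (SE 0.06, adjusted p = 0.000536) and LRRC32 by 1.04 (SE 0.23, adjusted p = 0.0015). ITGB8, another TGF-β-activating integrin subunit, rose by 0.92 in GCN2KO cells (SE 0.10, adjusted p = 0.000112), with a positive interaction (0.74, SE 0.14, adjusted p = 0.000312).

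Of the activin and inhibin subunits and antagonists, 2 were higher and 1 lower of 4 tested in unwounded GCN2KO cells, against 33.4% and 33.1% of all genes. After HDW 2 were higher and 2 lower, against 35.9% and 35.8% of all genes. INHBB, the βB activin subunit, was higher by 1.43 (log2, SE 0.22, adjusted p = 2.45e-05) and 1.53 (SE 0.20, adjusted p = 9.03e-06), though at 25.6 to 70.1 normalized read counts in unwounded group means it lay far under INHBA. INHBE was also higher, by 2.09 unwounded (SE 0.30, adjusted p = 1.39e-05) and 0.79 after HDW (SE 0.22, adjusted p = 0.00517), at group means of 3.87 to 17.2. FST moved with INHBA, rising after HDW by 1.24 in WT (SE 0.07, adjusted p = 2.18e-09) and 1.44 in GCN2KO cells (SE 0.19, adjusted p = 0.000423). FST was lower in GCN2KO cells by 0.71 unwounded (SE 0.08, adjusted p = 1.44e-06) and 0.52 after HDW (SE 0.18, adjusted p = 0.0173). FSTL3, a relative of follistatin, rose in WT cells by 0.32 (SE 0.06, adjusted p = 0.000411) and was lower in GCN2KO cells after HDW by 0.33 (SE 0.06, adjusted p = 0.00026).

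Among receptors, 4 were higher and 3 lower of 7 tested in unwounded GCN2KO cells, against 33.4% and 33.1% of all genes. After HDW 3 were higher and 3 lower, against 35.9% and 35.8% of all genes. BAMBI, a decoy receptor without a kinase domain, was higher by 2.40 (log2, SE 0.23, adjusted p = 1.35e-07) and 2.18 (SE 0.23, adjusted p = 1.08e-06), from group means of 8.51 and 12.5 in WT to 47.4 and 56.2 normalized read counts. The coreceptor gene TGFBR3 was higher by 1.08 (SE 0.19, adjusted p = 0.00011) and 1.62 (SE 0.15, adjusted p = 3.32e-07). The activin receptor genes ACVR1B and ACVR2B were lower in each state, ACVR1B by 0.55 (SE 0.07, adjusted p = 4.19e-06) and 0.44 (SE 0.04, adjusted p = 1.6e-07), and ACVR2B by 0.86 (SE 0.11, adjusted p = 2.5e-06) and 0.42 (SE 0.06, adjusted p = 1.22e-05). After HDW 1 receptor gene rose and 2 fell in WT cells, ACVR1 by 0.40 and ACVR1B and ACVR2B by 0.14 and 0.13 on the log2 scale, and 0 of 7 were called in GCN2KO cells by edgeR, where 3 were higher and 0 lower at an unadjusted p under 0.05 and DESeq2 called 1 higher. Of all genes, edgeR called 26.1% higher and 25.2% lower after HDW in WT cells, and 11.9% and 10.8% in GCN2KO cells. Of the 8 receptor genes it tested, DESeq2 called 1 higher and 1 lower after HDW in WT cells, and in unwounded GCN2KO against WT cells 4 higher and 2 lower.

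Of 13 transducers and regulators tested, 3 were higher and 9 lower in unwounded GCN2KO cells, against 33.4% and 33.1% of all genes. After HDW 3 were higher and 10 lower, against 35.9% and 35.8% of all genes. SMAD2, the partner transducer of SMAD3, was higher by 0.46 (log2, SE 0.06, adjusted p = 2.2e-06) and 0.37 (SE 0.03, adjusted p = 2.29e-07), opposite in sign to SMAD3. SMAD6, the other inhibitory SMAD, was counted at 131 ± 41.0 (SD, n = 5) in unwounded WT and 6.82 ± 2.80 in unwounded GCN2KO libraries, in normalized reads (-4.20, SE 0.29, adjusted p = 3.01e-09) and was lower by 2.94 after HDW (SE 0.22, adjusted p = 4.44e-08), on few reads in GCN2KO libraries. The corepressor gene TGIF2 was lower by 1.88 (SE 0.08, adjusted p = 1.57e-11) and 1.24 (SE 0.07, adjusted p = 4.57e-09), while its paralog TGIF1 was higher unwounded (0.46, SE 0.07, adjusted p = 2.01e-05). PPM1A, a phosphatase that acts on SMADs, was higher by 0.15 after HDW (SE 0.04, adjusted p = 0.0018).

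After HDW in WT cells 5 genes of that list rose and 4 fell, among them PMEPA1, a feedback inhibitor (0.48, SE 0.04, adjusted p = 7.72e-08), SMURF1, a ubiquitin ligase (0.33, SE 0.04, adjusted p = 2.06e-06), SMAD6 (-1.02, SE 0.18, adjusted p = 0.000225) and NEDD4L, another ubiquitin ligase (-0.60, SE 0.04, adjusted p = 1.94e-08). In GCN2KO cells 3 of 12 rose and 1 fell, with PMEPA1 at 0.40 (SE 0.09, adjusted p = 0.0105), TGIF2 at 0.44 (SE 0.08, adjusted p = 0.00303) and PPM1A at -0.24 (SE 0.06, adjusted p = 0.011). Of all genes, 26.1% rose and 25.2% fell in WT cells, and 11.9% and 10.8% in GCN2KO cells. NEDD4L had a positive interaction (0.80, SE 0.09, adjusted p = 3.63e-07).

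Target genes went both ways between genotypes, with 8 higher and 10 lower of 19 in unwounded GCN2KO cells, against 33.4% and 33.1% of all genes. After HDW 6 were higher and 11 lower, against 35.9% and 35.8% of all genes. COL4A1, a basement membrane collagen gene, was lower by 2.05 (log2, SE 0.13, adjusted p = 9.78e-10) and 1.93 (SE 0.09, adjusted p = 6.85e-10), and the tropomyosin gene TPM1 was lower by 1.46 unwounded (SE 0.07, adjusted p = 3.99e-11). CCN2, the gene of connective tissue growth factor, was higher by 1.62 (SE 0.19, adjusted p = 1.25e-06) and 1.70 (SE 0.22, adjusted p = 6.98e-06). The gene of the transcription factor SNAI1 was higher by 3.50 (SE 0.40, adjusted p = 1.2e-06) and 2.71 (SE 0.38, adjusted p = 1.81e-05), from group means of 1.36 and 3.97 in WT to 18.6 and 26.1 normalized read counts.

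HDW raised 12 and lowered 3 of 18 target genes tested in WT cells (list median 0.38 on the log2 scale), against 26.1% and 25.2% of all genes. In GCN2KO cells it raised 9 and lowered 0 of 19 (list median 0.28), against 11.9% and 10.8% of all genes. At an unadjusted p under 0.05 edgeR had 11 higher and 0 lower in GCN2KO cells, and DESeq2 called 9 higher and 0 lower. CCN2 rose by 1.38 in WT (SE 0.19, adjusted p = 2.01e-05) and 1.46 in GCN2KO cells (SE 0.21, adjusted p = 0.000745). ANGPTL4 rose by 0.96 in WT (SE 0.14, adjusted p = 4.96e-05) and 1.17 in GCN2KO cells (SE 0.15, adjusted p = 0.000302), and its interaction was not called (0.20, SE 0.21, adjusted p = 0.526). In WT cells TPM1 fell by 0.54 (SE 0.04, adjusted p = 5.8e-08) and CDKN2B, a cell cycle inhibitor, by 0.20 (SE 0.05, adjusted p = 0.00196). TAGLN, the gene of the actin-binding protein transgelin, rose 12.7-fold in WT cells (3.67, SE 0.17, adjusted p = 3.93e-10), from 64.0 ± 15.4 to 789 ± 154 (SD, n = 5), and had 135 ± 24.4 and 206 ± 28.9 in GCN2KO unwounded and HDW libraries. Against WT, TAGLN was higher by 1.12 in unwounded GCN2KO cells (SE 0.17, adjusted p = 2.18e-05) and lower by 1.93 after HDW (SE 0.14, adjusted p = 2.62e-08), with an interaction of -3.06 (SE 0.23, adjusted p = 2.08e-09). In GCN2KO cells TAGLN rose by 0.62 after HDW (SE 0.13, adjusted p = 0.00605). Of its exonic bases 47.8% are shared with PCSK7 on the opposite strand or ENSG00000280143 on the same strand, so its reads are uncertain to that extent.

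**Figure D4:**
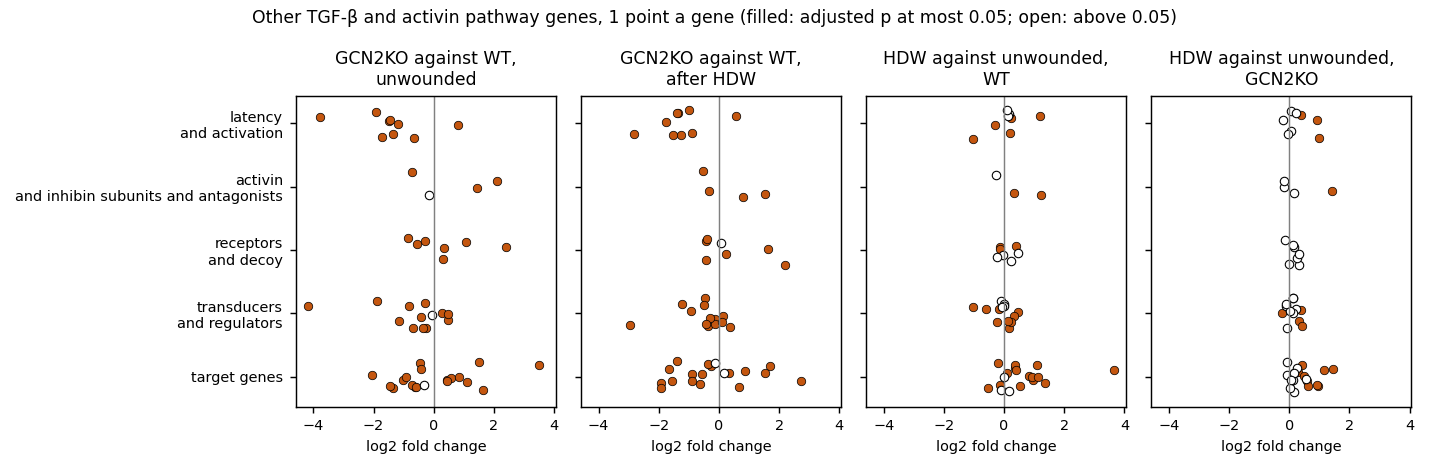
Log2 fold changes (horizontal axis) of the other pathway genes in 5 lists (rows, with points spread vertically for display) in the 4 pairwise comparisons, 1 point a gene, filled where the adjusted p was at most 0.05. In the latency and activation list 8 of 9 genes lie left of 0 in each comparison of GCN2KO with WT cells, and after HDW in GCN2KO cells most points are open.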

How the data were processed

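Total RNA of 20 NTERT samples was sequenced as 150 bp paired-end reads. The authors trimmed reads with Trimmomatic, aligned them to GRCh38 with STAR and counted them on genes with featureCounts (named in the study's methods and the submitters' processing notes), and deposited the raw counts of each gene, not normalized. The strand setting, the annotation release and the handling of reads on overlapping genes are not given in the sources used here. Symbols, positions and exon lengths came from GENCODE release 44, which matched 56410 of 57500 identifiers and left 1090 unmatched.

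Groups came from the sample labels, and the 6 h from the study's methods. Each pairwise comparison was fitted on its own 10 libraries by the quasi-likelihood test of edgeR 4.0.16 under R 4.3.3 (TMM, filterByExpr with minimum count 10 and total 15), and the interaction on all 20. The authors used DESeq2, which was run as an alternative (1.42.0). SE is the size of the log2 fold change over the square root of F. The DE thresholds were an adjusted p of 0.05 and a log2 fold change of 1. Ligand shares were compared by two-sided exact permutation of samples. Centred log2 CPM used a prior count of 2. Promoters came from the RefSeq table (GRCh38.p14), which held windows for all 10 genes. Python 3.11.15, numpy 2.4.6, pandas 2.3.3, scipy 1.17.1 and matplotlib 3.10.9 made the tables and figures. On simulated data the fits missed some of the changed genes, more for the interaction than for the pairwise comparison, and the recovery required of them was lowered after this was seen.

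The 10 genes, the lists of other pathway genes, the motifs and the tests were chosen with earlier results of these data known. Named genes are the 10, EIF2AK4, in each list and comparison the 2 higher and 2 lower called genes with the largest change, and the 3 genes most like each of the 3 that varied most. Genes named for sharing exonic bases, and markers, are exceptions. Alternatives were DESeq2, its size factors in edgeR, no filter or a mean minimum of 50 counts, library size alone, the replicate block, all 20 samples in 1 fit, shares without length scaling and each library left out. Thinning each library to 14083504 counts was added after the totals were seen. Replicate numbers in the labels are not stated to mark a shared culture, and the deviations of same-numbered samples correlated by -0.33 to 0.13, so samples were not paired. No replicate pair agreed within sampling noise (lowest chi-square per degree of freedom 2.41).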

Additional observations from a re-analysis of the deposited data

Results flagged for a closer look

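Over 48 groups of values checked (the 10 genes, EIF2AK4 and the TGFB1 share in 4 groups each), 4 held 1 library far from the other 4 by Dixon's ratio, where chance alone gives about 1 in 20 groups. These were GCN2KO HDW replicate 5 for TGFB2 (2109.75 normalized read counts, the lowest of its group), LTBP1 (1241, the highest) and TGFBI (27620.2, the highest), and WT unwounded replicate 4 for SMAD3 (7329, the highest). GCN2KO HDW replicate 5 is also the library of its group that stood apart over all genes, and leaving it out changed no call among the 10 genes in the comparisons that use it.

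Responses to HDW differed between GCN2KO and WT cells by the interaction test for TGFBR1 (0.27 in log2 units, SE 0.07, adjusted p = 0.00905) and SMAD3 (0.49, SE 0.12, adjusted p = 0.00334). Of the other pathway genes, positive interactions were called for ITGB8 (0.74), ACVR2B (0.45), SMAD6 (1.26), NEDD4L (0.80), TPM1 (0.57) and CDKN2B (0.30), and negative ones for INHBE (-1.30), ACVR1 (-0.26), TGIF1 (-0.36), TAGLN (-3.06) and PDGFB (-0.66), from those named by the rule for named genes. SMAD6 and INHBE rest on few reads, and DESeq2 called no interaction in the list that holds INHBE.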

How the results depend on the processing

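DE genes among the 10 in unwounded GCN2KO against WT cells fell from 2 to 1 with counts thinned to the smallest library and ranged from 1 to 2 with 1 library left out. Called interactions fell from 2 to 1 with no filter on low counts. TGFBR1 in unwounded GCN2KO against WT cells was -0.0321 with library size alone and -0.0025 with no filter, and -0.0198 to 0.0297 with 1 library left out. TGFB1 after HDW in GCN2KO cells was 0.0024 with library size alone and 0.0049 thinned, and -0.106 to 0.0646 with 1 left out. Thinned interactions were -0.34 for TGFB3, -0.0083 for INHBA and -0.0100 for LTBP1, with ranges of -0.108 to 0.296, -0.0606 to 0.0847 and -0.111 to 0.0778 with 1 left out. With 1 left out, signs also changed for TGFB3 in GCN2KO against WT cells after HDW (-0.272 to 0.0213), LTBP1 after HDW in WT (-0.0255 to 0.0967) and GCN2KO cells (-0.0526 to 0.135) and TGFBI after HDW in GCN2KO cells (-0.123 to 0.0163). None of the values that changed sign was called, and the cause was not tested. TGFB1 shares ranged from -24.2 to -21.7, -33.2 to -30.2, -2.98 to -2.21 and -13.2 to -9.83 points with 1 library left out.

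Under the replicate block the 10 genes had 8, 9, 7 and 3 calls in the pairwise comparisons and 2 in the interaction, as without it, and the paired exact test of the shares (-22.7, -31.3, -2.66 and -11.3 points) could not go below p = 0.0625. Over all genes, calls after HDW in GCN2KO cells were 3586, and 2121 with the replicate block, 5576 with all 20 samples in 1 fit, and 2217, 2137 and 2070.0 without GCN2KO unwounded replicate 5 or GCN2KO HDW replicate 2 or 3. DE genes over all genes, in the order of comparisons given, were 2521, 2368, 640 and 106, and 3920, 3681, 998 and 199 with no filter and 1630, 1328, 371 and 40 with a mean of at least 50 counts, which took the interaction from 547 to 280. TGFB3 rests on 6 to 42 raw counts a library.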
